A study of Homo sapiens and Mus musculus with 12 samples.

Results

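The receptor genes described here are TNFRSF9 (4-1BB, CD137) and its relatives TNFRSF4 (OX40), TNFRSF18 (GITR), TNFRSF1B (TNFR2) and CD27, members of the TNF receptor superfamily that carry costimulatory signals in lymphocytes. They were taken by symbol from a mouse and a human table of RNA-seq counts, and they were chosen for description with their fold changes in these same libraries already known. The values below therefore describe the chosen genes and are no test of them. Of the 10 symbols, 5 of 5 were found among 22021 mouse genes and 4 of 5 among 18304 human genes, which did not include TNFRSF18. Of the 9 genes found, 7 passed the filter on low counts of the main edgeR fit, all 5 in mouse and TNFRSF9 and TNFRSF1B in human.

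These receptors sit on the cell surface as trimers and are engaged by trimeric ligands of the TNF family, often borne by antigen-presenting cells. TNFRSF9 binds TNFSF9 (4-1BBL), TNFRSF4 binds TNFSF4 (OX40L), TNFRSF18 binds TNFSF18 (GITRL), CD27 binds CD70, and TNFRSF1B binds TNF and lymphotoxin alpha. None of them has a death domain. They recruit TRAF adaptors, which pass the signal to the canonical and the alternative NF-kB pathways and to survival genes of the BCL2 family, and NF-kB in turn drives transcription of several of its own inhibitors and of some of the receptors. In NK cells TNFRSF9 is known as a receptor that appears on activation, and CD27 as a marker of less mature stages in the mouse.

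The mouse libraries came from NK cells sorted from the spleen, with 3 WT and 3 KO replicates. WT mice were Ehmt2 flox/flox and KO mice Ehmt2 flox/flox; Ncr1-iCre, so that both groups carried floxed alleles of Ehmt2, the gene of the histone H3 lysine 9 methyltransferase also called G9a, and the KO group in addition expressed Cre recombinase from Ncr1, a gene switched on in cells of the NK lineage and in other innate lymphoid cells. All mice were C57BL/6J, and the study used them at 8–12 weeks of age. The genotype field of the KO samples reads Ezh2-KO, whereas their titles name EHMT2, and the titles were followed. The human libraries came from NK92MI, an NK lymphoma line that makes its own interleukin 2, with 3 replicates treated with BIX-01294, a small-molecule inhibitor of EHMT2, and 3 with the solvent DMSO. In other assays BIX-01294 was given to these cells at 0.25 μM for 5 days, and its dose in the RNA libraries is not given in the sources used here. Nothing in the labels says whether the NK92MI replicates were separate cultures, so the spread between them may be technical.

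Expression is given as CPM, counts scaled to the size of the library after TMM normalization. Total counts lay between 25891680 and 37438868 in the mouse libraries and between 16579469 and 17165446 in the human ones. Ehmt2 was at 275, 284 and 285 CPM in WT cells and at 171, 143 and 137 CPM in KO cells. A gene was called higher or lower at a Benjamini-Hochberg adjusted p under 0.05 by edgeR's quasi-likelihood test and a log2 fold change over 0.5 in either direction. By this rule 2.82% of 13189 tested mouse genes were called higher in KO NK cells and 6.69% lower, and 7.57% of 12727 tested human genes were called higher with BIX-01294 and 7.34% lower. The number of mouse calls changed strongly with the library left out. No gene was called without KO replicate 2 or without KO replicate 3, 35 were called higher and 64 lower without WT replicate 1, 6 and 8 without WT replicate 3, 905 and 1835 without WT replicate 2, and 452 and 1222 without KO replicate 1. At an unadjusted p under 0.05 lay 35.8% of the tested mouse genes and 46.1% of the tested human genes. By edgeR, 3208 of 13419 mouse genes were still under it without KO replicate 2, and 3287 of 13446 without KO replicate 3.

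The sorted mouse cells held all 12 NK markers listed, Ncr1, Klrb1c and Eomes among them, and their summed level was higher in each KO replicate than in each WT replicate. It was 4567, 7887 and 4754 CPM in the WT replicates and 8315, 10439 and 10385 CPM in the KO replicates. All 12 had a positive log2 fold change, and 6 were called higher, beside 2.82% of all tested genes. Without WT replicate 2, 12 were called. Macrophage and monocyte markers summed to 6016, 2414 and 4534 CPM in WT and to 2343, 1315 and 1818 CPM in KO replicates. Of these 8 genes 5 were called lower, beside 6.69% of all tested genes. B cell markers summed to 858, 539 and 1535 CPM in WT and to 501, 109 and 93.5 CPM in KO replicates. All 8 had a negative log2 fold change and 6 an unadjusted p under 0.05, beside 35.8% of all tested genes, but edgeR and DESeq2 called 0, limma-voom called 4 lower, and edgeR called 8 lower without KO replicate 1. Neutrophil markers summed to 90.3–779 CPM in WT and to 14.7–91.7 CPM in KO replicates. Of the 7 tested 3 were called lower, beside 6.69% of all tested genes. T cell markers, at 191–275 CPM in WT and 154–255 CPM in KO replicates, and regulatory T cell markers, at 74.9–112 CPM and 57.9–88.6 CPM, overlapped between the groups in their sums, as did those of dendritic cells (1120–1457 CPM and 1180–1430 CPM) and of ILC1 (599–697 CPM and 527–690 CPM). Single markers went both ways. Of 10 T cell markers 2 were called higher, beside 2.82% of all tested genes, and 6 were negative. Of 8 dendritic cell markers 2 were called lower, beside 6.69%. Of 8 regulatory T cell markers 2 had a positive log2 fold change, up to 0.63, the median was −0.40, and edgeR called 0, with 2 at an unadjusted p under 0.05. Without WT replicate 1, WT replicate 3, KO replicate 2 or KO replicate 3, edgeR called 0 markers of any of these lists. Foxp3, which defines regulatory T cells, a cell type rich in several of these receptors, had 118, 69 and 145 counts in WT and 108, 6 and 6 counts in KO replicates. WT replicate 2 was the WT library nearest to the KO libraries in NK, macrophage and B cell markers, and KO replicate 1 was the KO library nearest to the WT libraries in NK, macrophage and B cell markers. The part of these marker levels in the receptor values was not tested. In bulk RNA, fewer cells of a type and less RNA per cell cannot be told apart.

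**Figure D1:**
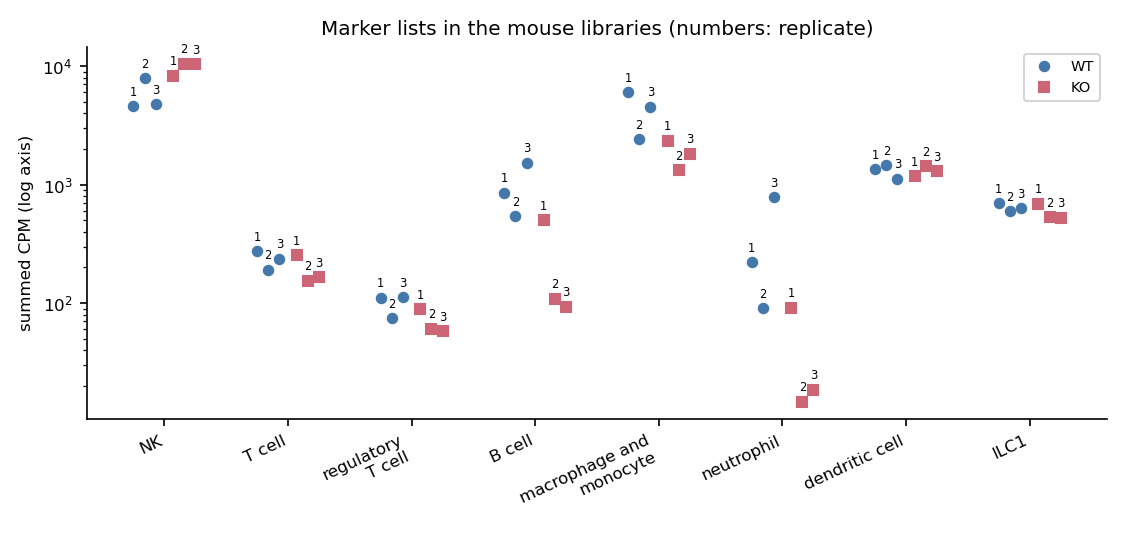
Summed level in CPM on a log axis of the marker genes of 8 cell types in each mouse library, with WT replicates as blue circles, KO replicates as red squares and the replicate number above each. NK markers lie between 4567 and 7887 CPM in WT and between 8315 and 10439 CPM in KO, and B cell, macrophage and neutrophil markers lie lowest in KO replicates 2 and 3.

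Tnfrsf9, the 4-1BB receptor, was at 37.2, 52.6 and 33.6 CPM in WT cells and at 57.8, 75.1 and 68.2 CPM in KO cells. Every KO replicate was above every WT replicate, and the nearest pair was KO replicate 1 and WT replicate 2. The means were 41.1 ± 10.1 CPM (SD, n = 3) in WT and 67.1 ± 8.73 CPM (SD, n = 3) in KO NK cells, a fold of 1.63 and a log2 fold change of 0.71 with a standard error of 0.18. With each library left out in turn, this log2 fold change stayed between 0.58 and 0.93, and it was highest without WT replicate 2. Of all tested genes, 3.65% had a larger log2 fold change. On GRCm38 the gene spans 150914562 to 150946102 of chromosome 4 (plus strand) and overlaps Camta1, which is annotated on the minus strand and had a log2 fold change of 0.22. The strand setting of the counting is not stated, so reads of both genes may have been exchanged or dropped where they overlap.

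Tnfrsf18, the GITR receptor, was at 49.1, 65.3 and 47.1 CPM in WT cells and at 92.7, 92.4 and 88.0 CPM in KO cells. The groups did not overlap, and the 3 KO replicates lay closer to each other than the WT replicates did. Its log2 fold change was 0.76 with a standard error of 0.13, and 0.67–0.92 with each library left out. It lies on the same chromosome from 156026164 to 156028895 and overlaps an annotated antisense gene, Gm16008, for which no counts were analysed here. The gap of 9.55 kb to the end of Tnfrsf4 is the smallest between any of the mouse receptor genes.

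Tnfrsf4, the OX40 receptor and the neighbour of Tnfrsf18, did not share its profile. It was at 9.63, 8.80 and 11.6 CPM in WT cells and at 10.6, 7.46 and 8.86 CPM in KO cells. The groups overlapped, with a log2 fold change of −0.16 and a standard error of 0.18.

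Cd27, the receptor of CD70, was at 109, 152 and 91.9 CPM in WT cells and at 143, 174 and 161 CPM in KO cells. WT replicate 2 lay above KO replicate 1, so that the groups overlapped. The log2 fold change was 0.44 with a standard error of 0.18, and it ranged from 0.29 to 0.67 with each library left out, the highest without WT replicate 2. Cd27 lies on chromosome 6 from 125232622 to 125237010 and overlaps Vamp1 on the opposite strand, with the same limit on the counting as for Tnfrsf9.

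Tnfrsf1b, the second receptor of TNF, was at 396, 420 and 390 CPM in WT cells and at 421, 446 and 473 CPM in KO cells. KO replicate 1 lay just above WT replicate 2, and the log2 fold change was 0.15 with a standard error of 0.09. Of the 5 mouse receptors, 2 (Tnfrsf9 and Tnfrsf18) were called higher beside 2.82% of all tested genes, and edgeR called none lower beside 6.69%. Without WT replicate 1, WT replicate 3, KO replicate 2 or KO replicate 3 no receptor was called, and without WT replicate 2, 3 were called higher. With the libraries scaled to the NK markers, as described next, 0 were called higher and 2 (Tnfrsf4 and Tnfrsf1b) lower. Since the genes were chosen on this contrast, nothing is read from these counts. WT replicate 2 held the highest WT level of Tnfrsf9, Tnfrsf18, Cd27 and Tnfrsf1b, and also the highest WT level of the NK markers.

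The higher levels of Tnfrsf9 and Tnfrsf18 in KO NK cells were seen in CPM and not per NK marker count. The NK markers include Tbx21, Il2rb and Prf1, whose mRNA the study reports as raised in KO NK cells by RT-qPCR. This scale is therefore no measure of NK cell number alone. Per 1000 counts of the 12 NK markers, Tnfrsf9 had 8.14, 6.67 and 7.06 counts in the WT replicates and 6.95, 7.20 and 6.57 counts in the KO replicates, so that the groups overlapped. Tnfrsf18 likewise had 10.8, 8.28 and 9.91 counts in WT and 11.2, 8.85 and 8.47 counts in KO replicates on this scale. Cd27 lay between 19.2 and 23.9 counts in WT and between 15.5 and 17.2 counts in KO replicates, and Tnfrsf1b between 53.3 and 86.6 and between 42.7 and 50.6 counts. Both were lower in every KO replicate than in every WT replicate per NK marker count, whereas neither was lower in CPM. Tnfrsf4 lay between 1.12 and 2.44 counts in WT and between 0.715 and 1.28 counts in KO replicates, and the groups overlapped.

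When the libraries were scaled to the NK markers in edgeR, the log2 fold changes became −0.067 for Tnfrsf9, −0.013 for Tnfrsf18, −0.33 for Cd27, −0.66 for Tnfrsf1b and −0.98 for Tnfrsf4. Those of Tnfrsf9 and Tnfrsf18 were smaller than their standard errors of 0.27 and 0.27. This scaling also moved the median log2 fold change of all tested genes from 0.01 to −0.81. Relative to that median, Tnfrsf9 was 0.69 higher with TMM and 0.74 higher with NK marker scaling, and Tnfrsf18 was 0.75 and 0.79 higher. A change of scaling shifts all genes by about the same amount, so this distance was bound to stay similar. Nothing is read from it.

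**Figure D2:**
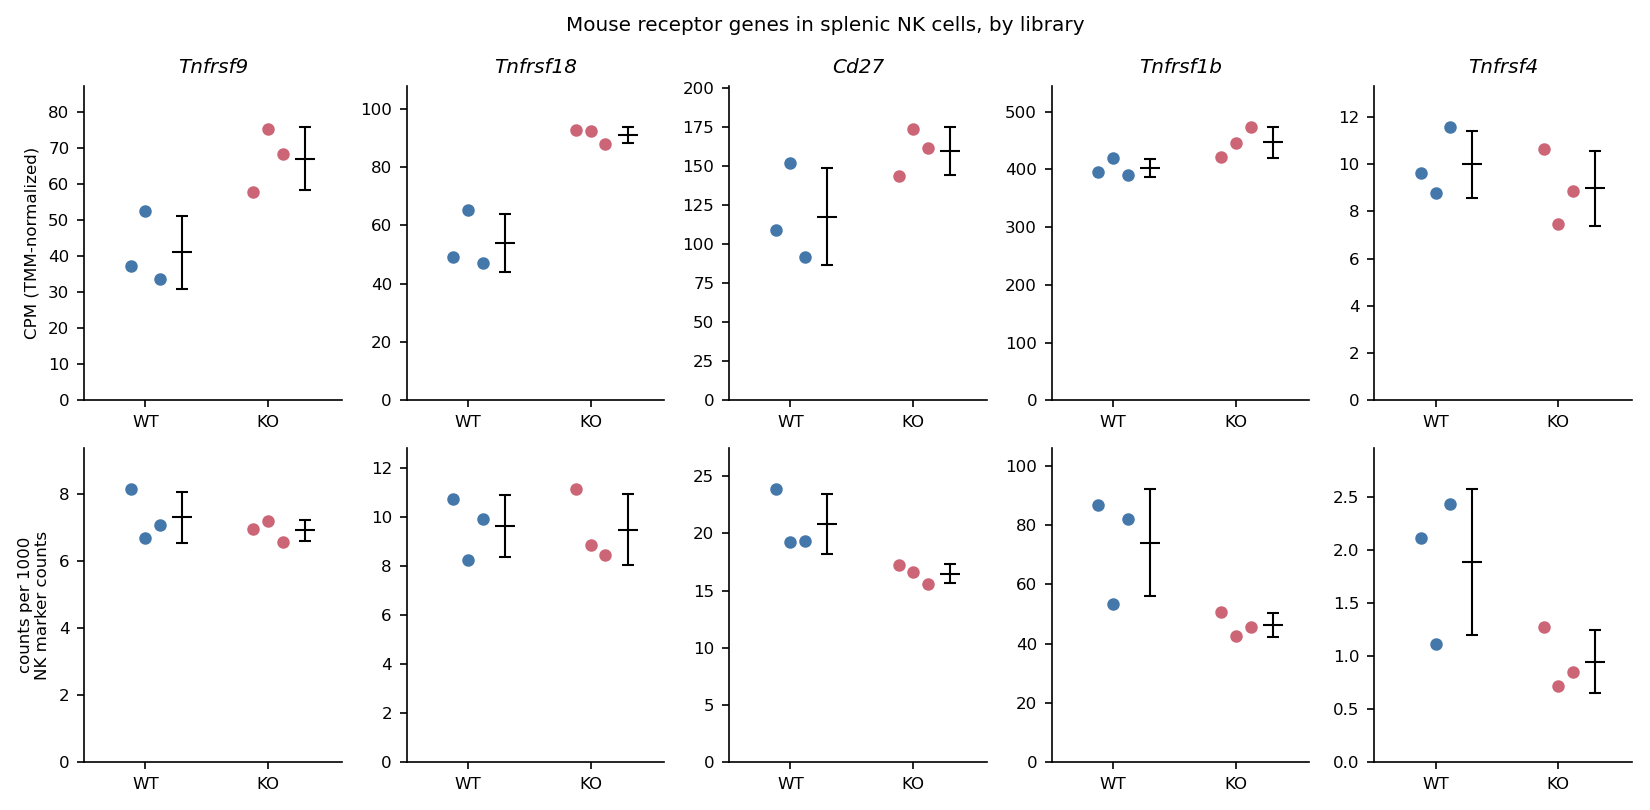
Levels of the 5 mouse receptor genes in each library, in CPM (top) and in counts per 1000 NK marker counts (bottom), with WT in blue, KO in red, and black bars for the mean ± SD (n = 3). In CPM the KO replicates of Tnfrsf9 and Tnfrsf18 lie above the WT replicates, and per NK marker count the groups of both overlap while Cd27 and Tnfrsf1b are lower in KO.

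In NK92MI cells TNFRSF9 showed the largest difference of the receptor genes. It had 97, 89 and 54 counts in the DMSO replicates and 1132, 1053 and 1063 counts in the BIX replicates. In CPM these were 5.65, 5.20 and 3.20 with DMSO and 68.9, 61.9 and 62.8 with BIX-01294, without overlap. The fitted fold was 13.7, with a log2 fold change of 3.78 and a standard error of 0.14. Leaving out each library in turn kept the log2 fold change between 3.57 and 3.94. Only 6 of 12727 tested genes had a larger one. In the GENCODE annotation of GRCh38 the gene spans 7915871 to 7943165 of chromosome 1 (minus strand), so that its outermost start lies upstream of the start RefSeq gives.

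TNFRSF1B was far more abundant and nearly level. It was at 389, 401 and 358 CPM with DMSO and at 403, 392 and 424 CPM with BIX-01294. The groups overlapped, and the log2 fold change was 0.09 with a standard error of 0.06.

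TNFRSF4 and CD27 were close to absent in these cells. TNFRSF4 had 5, 9 and 2 counts with DMSO and 2, 0 and 4 counts with BIX-01294, and CD27 had 6, 3 and 1 counts with DMSO and 0, 3 and 3 counts with BIX-01294. Both fell under the filter on low counts and were not fitted in the main edgeR fit. In edgeR without the filter, and in DESeq2, 4 human receptors were fitted, of which 1 was called higher and 0 lower. With counts near the floor of 3, no difference is read from either gene. CD27 overlaps CD27-AS1 and TAPBPL in the annotation, so that its few counts are uncertain. Of the 2 human receptors tested, 1 (TNFRSF9) was called higher beside 7.57% of all tested genes, and this count too describes the choice of the genes.

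The summed level of 12 human NK markers was 5473–5906 CPM with DMSO and 6858–8553 CPM with BIX-01294. Of these markers 3 were called higher and none lower by edgeR, DESeq2 or limma-voom, beside 7.57% and 7.34% of all tested genes by edgeR. B cell, macrophage and neutrophil markers each summed to 26.3 CPM or less in these libraries. The B cell markers summed to 13.4–14.4 CPM with DMSO and to 24.2–26.3 CPM with BIX-01294, and the macrophage markers to 3.68–4.89 CPM and to 8.97–10.2 CPM, and both of the 2 tested genes of each list were called higher. Their part in the receptor values was not tested. Per 1000 NK marker counts TNFRSF9 had 0.572–1.03 counts with DMSO and 7.34–9.03 counts with BIX-01294, so its difference was present on this scale as well. TNFRSF1B had 64.0–71.1 counts with DMSO and 49.6–57.2 counts with BIX-01294 on this scale, lower in each BIX replicate, in contrast to its CPM. The NK marker sum was itself higher in each BIX replicate, so this scale is not a fixed reference.

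**Figure D3:**
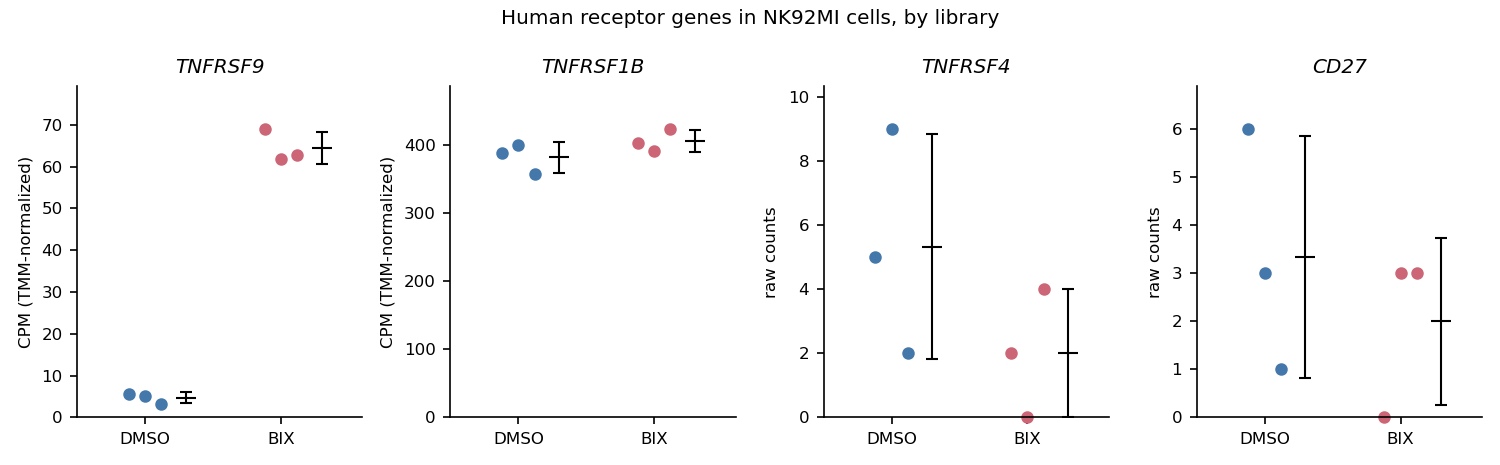
Levels of the human receptor genes in each NK92MI library, in CPM for TNFRSF9 and TNFRSF1B and in raw counts for TNFRSF4 and CD27, with DMSO in blue, BIX-01294 in red, and black bars for the mean ± SD (n = 3). TNFRSF9 lies between 3.20 and 5.65 CPM with DMSO and between 61.9 and 68.9 CPM with BIX-01294, and TNFRSF1B overlaps between the groups.

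TNFRSF9 and TNFRSF1B also differed in the sequence before their starts. The 250 bases upstream of the start that RefSeq gives for each gene on GRCh38.p14 are shown 5′ to 3′ on the gene's strand, with matches to the NF-kB consensus and to AP-1 (TGANTCA), searched on both strands, in capitals. They are chr1:7940840-7941089 (minus strand) for TNFRSF9, the receptor with the large difference, and chr1:12166741-12166990 (plus strand) for TNFRSF1B, the abundant and nearly level one.
TNFRSF9: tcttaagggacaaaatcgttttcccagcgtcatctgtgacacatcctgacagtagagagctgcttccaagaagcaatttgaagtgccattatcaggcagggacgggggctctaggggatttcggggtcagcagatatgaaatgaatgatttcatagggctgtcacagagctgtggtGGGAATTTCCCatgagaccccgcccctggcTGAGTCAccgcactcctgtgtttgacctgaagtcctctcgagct
TNFRSF1B: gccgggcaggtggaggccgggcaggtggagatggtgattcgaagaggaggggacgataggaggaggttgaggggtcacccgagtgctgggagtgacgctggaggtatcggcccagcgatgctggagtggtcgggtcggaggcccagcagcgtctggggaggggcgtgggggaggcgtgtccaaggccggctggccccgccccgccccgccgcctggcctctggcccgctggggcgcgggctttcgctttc

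The TNFRSF9 sequence held a run of overlapping matches to NF-kB that began 74 bases before the start and an AP-1 match 44 bases before it. The TNFRSF1B sequence held neither. The promoter of TNFRSF18, which was not among the human genes counted, held neither as well. Of 35116 promoters of 300 bases in the same table, 11.27% held an NF-kB match, 7.709% an AP-1 match and 0.6151% both. The TNFRSF1B window had 22 CpG dinucleotides and 72.4% G and C, and the TNFRSF9 window 7 CpG dinucleotides and 51.6% G and C. For CD27, an AP-1 match lay 236 bases before the RefSeq start and no NF-kB match was found. The window searched for CD27, chr12:6443642-6443941, ends upstream of its GENCODE start at 6444955. The bases just before that GENCODE start were not searched. A promoter of TNFRSF4 was not analysed here. A match describes the letters only and shows no binding.

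Levels per length place the receptors beside the rest of their family. Per kilobase of exon, the order in WT NK cells was Tnfrsf1b (105 ± 4.16 CPM per kb), Cd27 (50.5 ± 13.2), Tnfrsf18 (35.3 ± 6.53), Tnfrsf9 (15.1 ± 3.72) and Tnfrsf4 (7.33 ± 1.04; all SD, n = 3). The ranges of Cd27 and Tnfrsf18 overlapped over the WT libraries, and the other neighbours in this order did not. In KO NK cells the order was the same, with Tnfrsf9 at 24.6 ± 3.21 CPM per kb and Tnfrsf18 at 59.7 ± 1.76 CPM per kb, and no neighbours overlapped. Among 28 TNF receptor superfamily genes listed in mouse, Tnfrsf1b ranked first in both groups, and Tnfrsf9 ranked 9 in WT and 5 in KO NK cells. The genes it passed are named here after their values were seen. Tnfrsf13b (24.0 in WT and 11.1 CPM per kb in KO), Tnfrsf13c (22.8 and 6.84) and Ltbr (22.3 and 10.2) were themselves lower in KO. Each of them overlapped Tnfrsf9 over the WT libraries. Relt (22.7 and 23.4) overlapped Tnfrsf9 over the KO libraries.

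In NK92MI cells treated with DMSO, TNFRSF1B stood at 101 ± 5.94 CPM per kb, TNFRSF9 at 0.737 ± 0.206, TNFRSF4 at 0.158 ± 0.104 and CD27 at 0.147 ± 0.110 (SD, n = 3), and the last 2 overlapped. With BIX-01294, TNFRSF9 stood at 10.2 ± 0.603 CPM per kb, below TNFRSF1B at 108 ± 4.26 CPM per kb. TNFRSF9 thus moved from rank 11 to rank 3 of 18 superfamily genes listed in human. With the longest transcript in place of all exons as the length, these ranks of Tnfrsf9 and TNFRSF9 were the same.

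**Figure D4:**
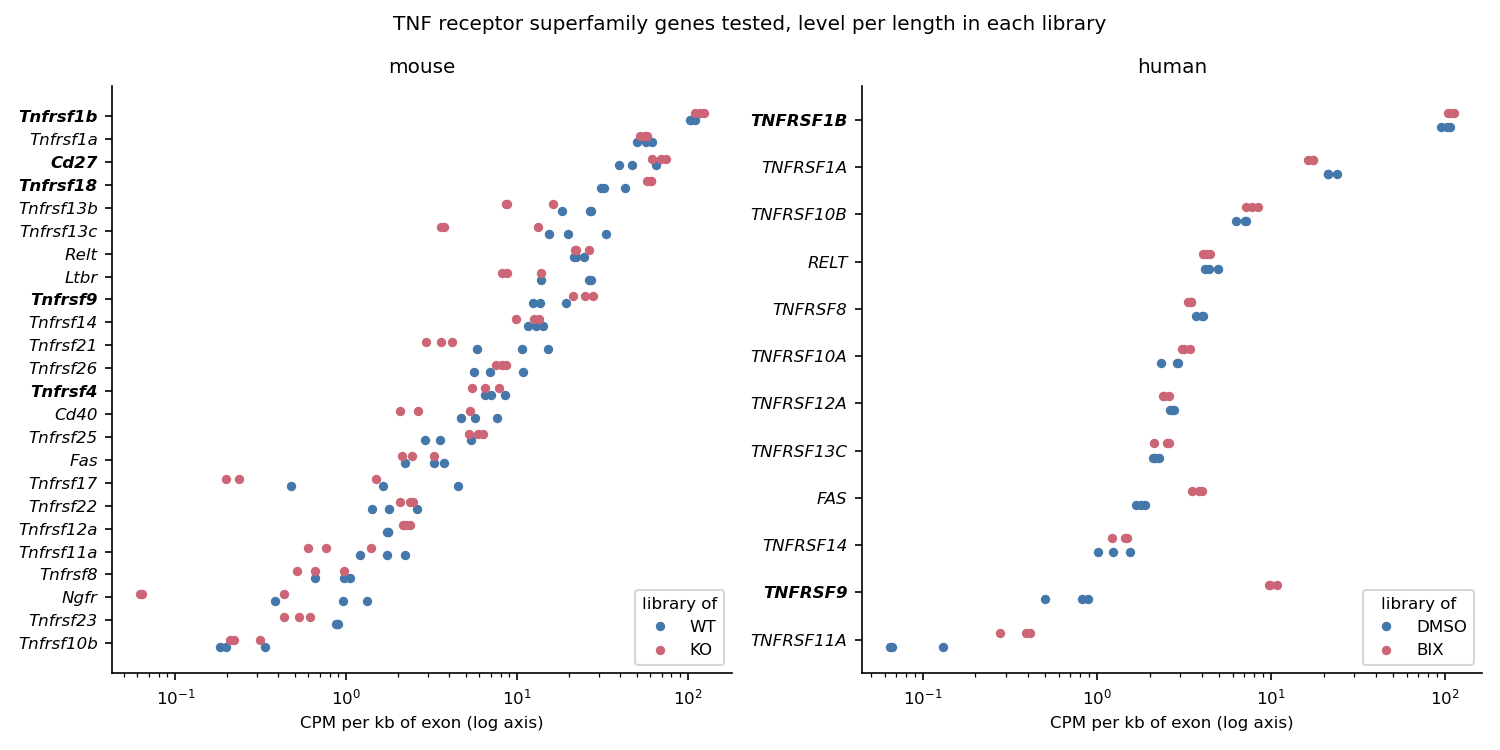
Level in CPM per kb of exon (log axis) of the TNF receptor superfamily genes tested, in each mouse library (left, WT blue and KO red) and each human library (right, DMSO blue and BIX-01294 red), ordered by the control mean, with the chosen receptors in bold. TNFRSF9 moves from near the bottom of the human order to about 10.2 CPM per kb, while TNFRSF1B leads both panels.

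Over the 6 mouse libraries, genes whose centred log2 CPM profile lay among the nearest to that of Tnfrsf9 were Lck (root mean square distance 0.016), Sla2 (0.057), Cd200r4 (0.060) and Zap70 (0.060). Tnfrsf18 lay at 0.13 and Cd27 at 0.13, Tnfrsf1b at 0.34 and Tnfrsf4 at 0.59. In the 6 human libraries the nearest to TNFRSF9 were SUCNR1 (0.29), KCNJ18 (0.37), ENPP6 (0.37), CXCL8 (0.40) and EBI3 (0.54), and TNFRSF1B lay at 1.86. In the DMSO replicates KCNJ18 had only 4, 2 and 3 counts and CXCL8 7, 4 and 3. ENPP6 had 0, 1 and 0 there, and EBI3 had 0, 0 and 0. The distances of these low genes therefore depend on the prior count. With a prior count of 0.5 in place of 2 these mouse genes were again among the nearest, and in human LINC01215 and IL13 took the places of ENPP6 and EBI3.

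The ligands of the receptors were mostly scarce in the mouse libraries. Of 7 listed, 6 were tested. By edgeR none was called higher and 1 lower, beside 2.82% and 6.69% of all tested genes. The median log2 fold change was −0.28, beside 0.01 for all tested genes. The one called was Tnfsf18, the ligand of GITR, with 32, 8 and 16 counts in WT and 2, 0 and 2 counts in KO replicates. Its log2 fold change was −3.78 with a standard error of 0.81 and an adjusted p of 0.0380, and it was not called without WT replicate 1, WT replicate 3, KO replicate 2 or KO replicate 3. Tnfsf9, the 4-1BB ligand, was at 5.42, 3.57 and 4.27 CPM in WT and at 4.51, 3.61 and 3.07 CPM in KO replicates, which overlapped. Cd70 fell under the filter on low counts.

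Of the 20 mouse adaptor and ubiquitin-chain genes, edgeR called none, with 5 at an unadjusted p under 0.05, beside 35.8% of all tested genes, and DESeq2 and limma-voom called none either. Traf2, an adaptor that binds these receptors directly, was at 60.6, 66.3 and 61.9 CPM in WT and at 81.1, 81.0 and 78.5 CPM in KO replicates. Its groups did not overlap, but its log2 fold change of 0.35, with an adjusted p of 0.0387 by edgeR, lay under the fold threshold. Traf1, which is itself a target of NF-kB, had a log2 fold change of 0.18 and an adjusted p of 0.119 by edgeR. Birc3, the inhibitor of apoptosis that joins the TRAF complex, had a log2 fold change of −0.30 and an adjusted p of 0.0507.

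Among 17 mouse NF-kB pathway genes edgeR, DESeq2 and limma-voom called none, with 4 at an unadjusted p under 0.05 by each, beside 35.8% of all tested genes by edgeR, and the median log2 fold change was −0.03. Of 12 survival genes, edgeR called none higher and only Birc5 lower, beside 2.82% and 6.69% of all tested genes. By edgeR 6 of the 12 had an unadjusted p under 0.05, beside 35.8% of all tested genes. Log2 fold changes of this list ran from −0.80 to 0.91. Birc5 acts in cell division as well as in apoptosis. It was at 21.6, 20.2 and 17.4 CPM in WT and at 9.55, 13.4 and 11.1 CPM in KO replicates, a log2 fold change of −0.80 with an adjusted p of 0.0327. Of 19 other superfamily receptors tested, none was called higher and 3 were called lower, beside the same 2.82% and 6.69%. Of these receptors 9 had an unadjusted p under 0.05 by edgeR, beside 35.8%.

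The 3 were Tnfrsf21 (death receptor 6), Tnfrsf13b (TACI, a receptor best known on B cells) and Ltbr (the lymphotoxin beta receptor, known on stromal and myeloid cells). Tnfrsf21 was at 62.4, 23.8 and 43.8 CPM in WT and at 17.1, 12.04 and 14.8 CPM in KO replicates, with a log2 fold change of −1.57 and an adjusted p of 0.0350. Tnfrsf13b had a log2 fold change of −1.11 (adjusted p = 0.0452 by edgeR) and Ltbr one of −1.13 (adjusted p = 0.0484), and Ltbr overlapped between the groups. B cell and macrophage markers moved the same way in these libraries, as given above, and their part was not tested.

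Over all 74 mouse pathway genes tested, edgeR called 0 higher and 5 lower, beside 2.82% and 6.69% of all tested genes, with 25 at an unadjusted p under 0.05, beside 35.8%. DESeq2 called 0 higher and 9 lower and limma-voom 0 and 5. The edgeR counts changed with the library left out. They were 0 higher and 0 lower without WT replicate 1, WT replicate 3, KO replicate 2 or KO replicate 3. Without WT replicate 2 they were 2 higher and 10 lower, and without KO replicate 1 they were 0 higher and 11 lower. When the libraries were scaled to the NK markers, 58 were called lower, with the median log2 fold change of all tested genes at −0.81.

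The pathway genes of NK92MI cells gave another picture. Of 62 tested, 45 had a positive log2 fold change, 22 were called higher beside 7.57% of all tested genes, and 1 was called lower beside 7.34%. The median log2 fold change was 0.32, beside −0.01 for all tested genes. The number called higher stayed between 20 and 22 with each library left out, and DESeq2 called 21. The lists were written with earlier results of these data known, so their counts are a description of the chosen genes.

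All 6 ligand genes tested had a positive log2 fold change with BIX-01294, and 3 were called higher, beside 7.57% of all tested genes. Without BIX replicate 3 only 1 was called, since the log2 fold change of LTA was then 0.46 and that of LTB 0.37, under the fold threshold. TNFSF9, the ligand of TNFRSF9, had 11, 10 and 1 counts with DMSO and 13, 40 and 38 counts with BIX-01294. The groups did not overlap, but BIX replicate 1 lay close to the DMSO replicates, and the log2 fold change was 2.05 with a standard error of 0.55 and an adjusted p of 0.00957 by edgeR. LTA, which encodes lymphotoxin alpha, was at 69.2, 73.3 and 69.3 CPM with DMSO and at 99.5, 93.5 and 119 CPM with BIX-01294 (log2 fold change 0.56, adjusted p = 0.000201 by edgeR). LTB, which encodes its membrane-bound partner, was at 344, 392 and 354 CPM and at 500, 436 and 673 CPM (log2 fold change 0.56, adjusted p = 0.00230). TNF and CD70 overlapped between the groups, with log2 fold changes of 0.09 and 0.31. TNFSF4 had a log2 fold change of 0.74 and was not called (adjusted p = 0.117).

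Of the 20 adaptor genes, 4 were called higher and 1 lower, beside 7.57% and 7.34% of all tested genes. TRAF1 was at 58.1, 56.3 and 51.4 CPM with DMSO and at 153, 141 and 169 CPM with BIX-01294, a log2 fold change of 1.48 with a standard error of 0.08. BIRC3 was at 144, 127 and 153 CPM and at 383, 397 and 331 CPM, a log2 fold change of 1.39 with a standard error of 0.08. Both are known targets of NF-kB and bind TRAF2. TANK, a TRAF-binding regulator, rose with a log2 fold change of 0.79, and CYLD, a deubiquitinase that restrains TRAF signalling, with one of 0.57. TRAF5, which serves OX40 and CD27 among others, was at 135, 117 and 125 CPM with DMSO and at 79.6, 91.8 and 76.8 CPM with BIX-01294, a log2 fold change of −0.60. TRAF2 overlapped between the groups (log2 fold change 0.10), and MAP3K14, the NIK kinase of the alternative pathway, did so too (0.08).

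Of 17 NF-kB pathway genes, 9 were called higher and none lower by edgeR, beside 7.57% and 7.34% of all tested genes. DESeq2 called 8 higher. Named by their adjusted p, the called genes of this and the remaining lists were led by TNFAIP3, NFKB2, MCL1, FAS, RELB, PIM2, NFKBIB and NFKBIA, each with an adjusted p of 1.91e-06 or less by edgeR. TNFAIP3, which encodes the deubiquitinase A20, was at 41.6, 39.8 and 41.9 CPM with DMSO and at 122, 125 and 123 CPM with BIX-01294, a log2 fold change of 1.59 with a standard error of 0.07. NFKB2, the precursor subunit of the alternative pathway, was at 73.9, 81.5 and 72.4 CPM and at 211, 209 and 225 CPM, a log2 fold change of 1.50. RELB, its partner, rose with a log2 fold change of 1.39. The inhibitors NFKBIA and NFKBIB, which hold NF-kB dimers in the cytoplasm, had log2 fold changes of 1.18 and 1.05. In each of these genes every BIX replicate lay above every DMSO replicate.

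Of 9 survival genes tested, 4 were called higher, beside 7.57% of all tested genes. MCL1, a BCL2 relative that guards mitochondria, was at 551, 515 and 528 CPM with DMSO and at 999, 1007 and 985 CPM with BIX-01294, a log2 fold change of 0.91. PIM2, a serine/threonine kinase that promotes survival, had a log2 fold change of 0.85. Of 10 other superfamily receptors tested, 2 were called higher, beside the same 7.57%. FAS, a death receptor, was at 52.4, 48.8 and 54.9 CPM and at 118, 102 and 113 CPM, a log2 fold change of 1.10. The other was TNFRSF11A (RANK), named here after its values were seen, with 10, 20 and 10 counts with DMSO and 41, 60 and 63 counts with BIX-01294.

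**Figure D5:**
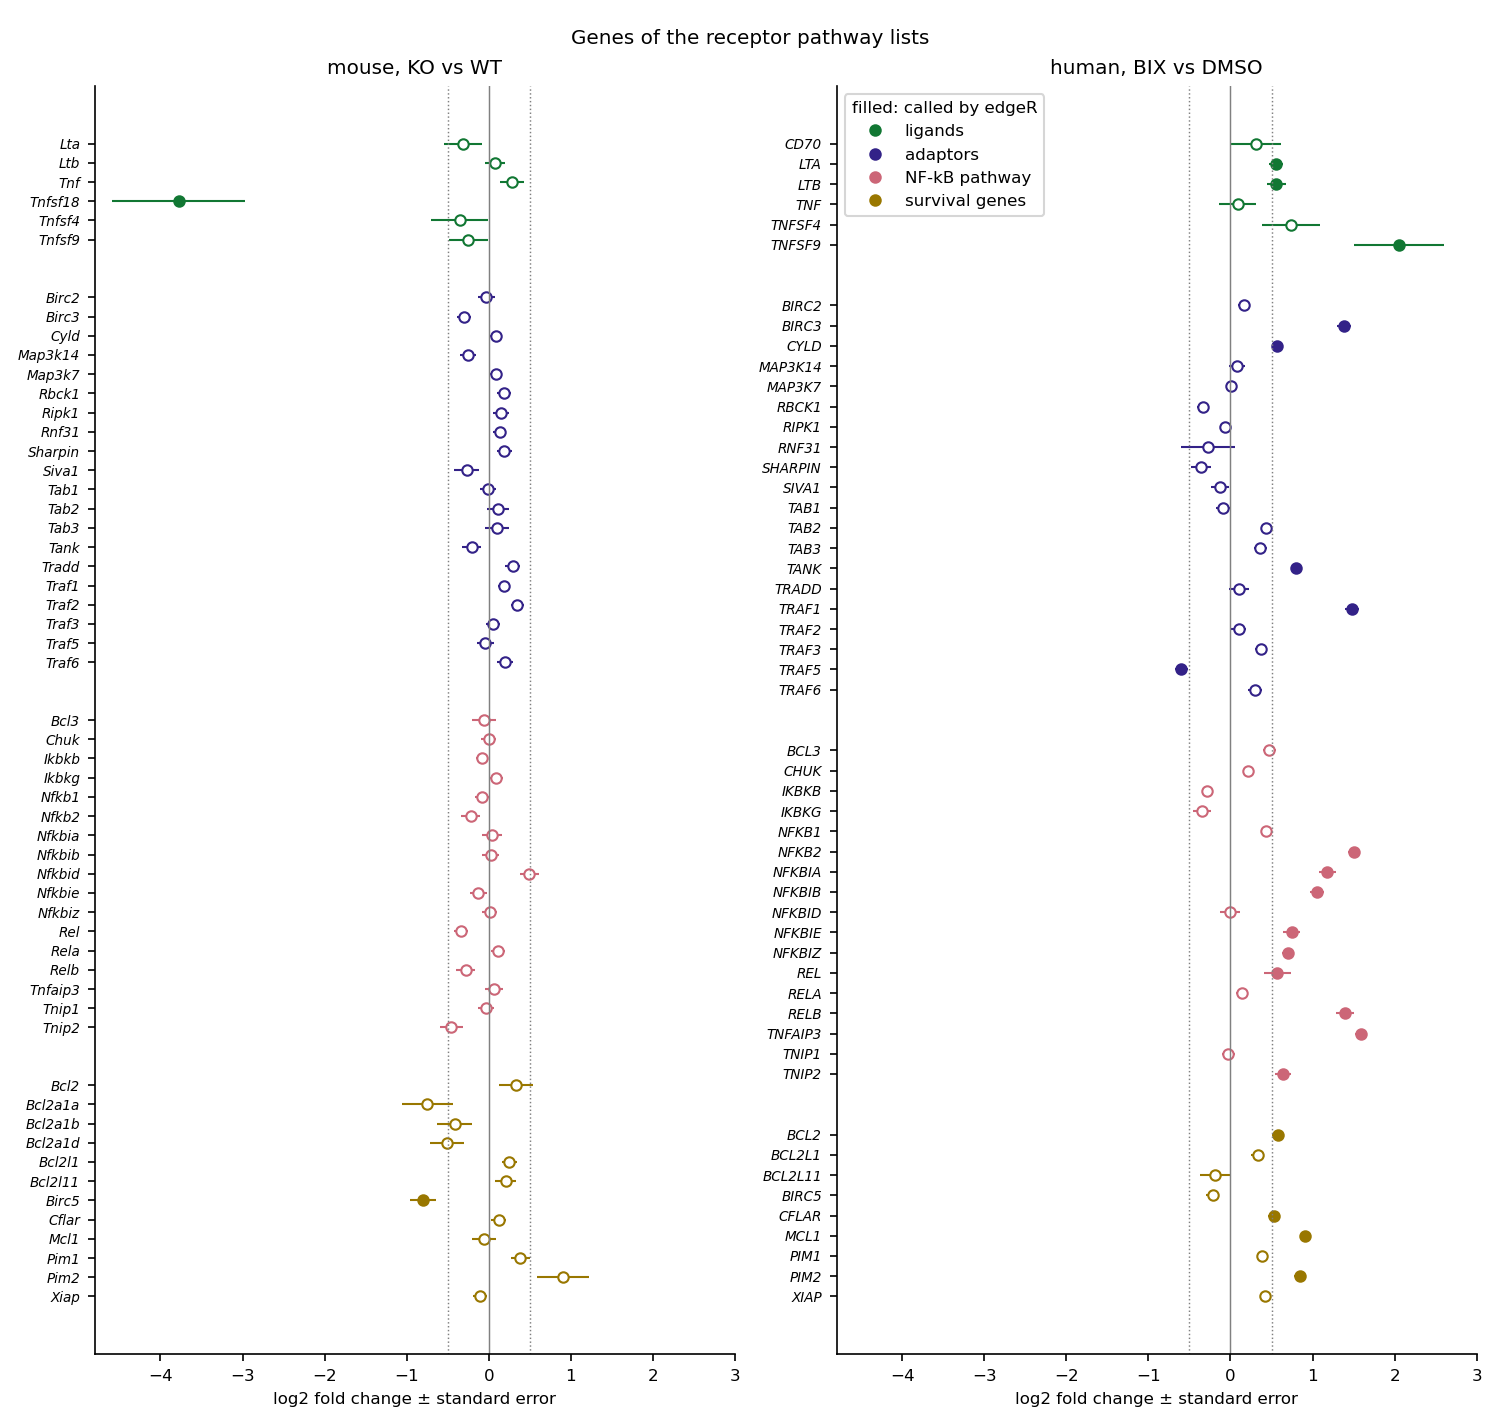
Log2 fold change with its standard error for every tested gene of the ligand, adaptor, NF-kB pathway and survival lists, KO against WT in mouse (left) and BIX-01294 against DMSO in human (right), with filled points for genes called by edgeR and dotted lines at the fold threshold of 0.5. The called mouse genes lie to the left of 0, and the called human genes lie to the right except TRAF5.

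Several of the human pathway genes called higher also held matches to the NF-kB consensus before or near their starts. Of the 19 of them with a RefSeq promoter, 8 held a match in the window of 300 bases, beside 4 of 30 pathway genes that were tested and not called and 12.66% of the promoters of all tested genes. Windows of 30 bases around the first match of TNFRSF9, NFKBIA, TNFAIP3, BIRC3 and LTB, on the gene's strand of GRCh38.p14, are shown so that the letters can be compared, with the match in capitals. These genes were picked for display after the matches were seen.
TNFRSF9, chr1:7940894-7940923, minus strand: gagctgtggtGGGAATTTCCCatgagaccc
NFKBIA, chr14:35404811-35404840, minus strand: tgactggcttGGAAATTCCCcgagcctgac
TNFAIP3, chr6:137867182-137867211, plus strand: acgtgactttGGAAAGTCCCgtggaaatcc
BIRC3, chr11:102317275-102317304, plus strand: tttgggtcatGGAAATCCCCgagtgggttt
LTB, chr6:31582492-31582521, minus strand: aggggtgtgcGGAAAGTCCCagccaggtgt
The matches began 81 bases before the start in NFKBIA, 67 in TNFAIP3, 199 in BIRC3 and 86 in LTB. The promoter of TNFSF9, which was also called higher, held none. No test was made of these shares. The lists were written with earlier results of these data known and hold known targets of NF-kB. The shares therefore describe the chosen genes only.

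The genes that lie next to the receptors were counted as well, and nothing is read from these small counts. The 4 receptors other than CD27 lie within 10.8 Mb of mouse chromosome 4, from 145213463 to 156028895, and within 11.01 Mb of human chromosome 1 on GRCh38, from 1203508 to 12209228. Of the 16 nearest tested mouse genes, edgeR called none higher and 1 lower, beside 2.82% and 6.69% of all tested genes, with 5 at an unadjusted p under 0.05, beside 35.8%. DESeq2 called 0 and 1 and limma-voom 0 and 0. The one called was Ltbr beside Cd27, which is also on the list of receptors above, and without WT replicate 2, 2 neighbours were called higher and 2 lower. Of the 16 nearest tested human genes, edgeR, DESeq2 and limma-voom called none, beside 7.57% of all tested genes called higher and 7.34% lower by edgeR, with 4 at an unadjusted p under 0.05 by edgeR, beside 46.1%. The genes on each side of human TNFRSF9 were VAMP3 (log2 fold change 0.20), PER3 (0.96, adjusted p = 0.109 by edgeR), PARK7 (0.14) and RERE (−0.04). TNFRSF1A, the neighbour of CD27 that encodes the death-domain receptor of TNF, had a log2 fold change of −0.37 with an adjusted p of 0.00123 by edgeR, under the fold threshold.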

How the data were processed

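The RNA-seq libraries came from sorted splenic NK cells (3 WT, 3 KO) and from the NK92MI line (3 given DMSO, 3 given BIX-01294). According to the submitters' processing notes, reads were trimmed with fastp 0.23.4, aligned with STAR 2.7.11b and counted with HTSeq 2.0.3. The builds were GRCm38/mm10 and GRCh38/hg38, and the strand setting and annotation release are not given in the sources used here. The authors deposited unnormalized read counts for each gene symbol. Columns were matched to samples by the library names, and the human control columns, named otherwise than the DMSO samples, were used as the DMSO group.

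Each species was fitted separately on all genes with R 4.3.3 and edgeR 4.0.16 (TMM, filterByExpr, quasi-likelihood test, Benjamini-Hochberg adjustment). Calls required an adjusted p below 0.05 with a log2 fold change beyond 0.5 in either direction. The study used DESeq2 with 0.01 and reports mouse genes changed in both directions. With edgeR, another tool, no mouse call was made at 0.01, so this is no like comparison with the study. At an adjusted p below 0.05, DESeq2 called 570 mouse genes higher and 1668 lower. Alternatives were DESeq2 1.42.0, limma-voom (limma 3.58.1), other scalings, filters and thresholds, and each library left out. The procedure was also run on simulated counts. These held no shifts of cell type markers between libraries like those of the mouse samples. The run therefore does not show how firm the mouse calls are. At these depths counting error was small except for the lowest counts, and 3 counts were taken as the floor.

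The receptor genes and all gene lists were chosen with earlier results of these data known. Named genes were the receptors, any ligand or adaptor, the called genes of the other lists (up to 8 per species by adjusted p), called neighbours, and the 5 genes with the profile most like that of Tnfrsf9 or TNFRSF9 on log2 CPM with a prior count of 2, of which one is not reported here. Neighbours were the nearest tested genes on each side by position, and positions and exon lengths came from GENCODE annotations of the same builds, which need not be the authors' release. Promoters came from RefSeq on GRCh38.p14.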

Additional observations from a re-analysis of the deposited data

How the results depend on the processing

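In human, with every library left out in turn, the log2 fold change of TNFRSF9 stayed between 3.57 and 3.94 and that of TNFRSF1B between 0.04 and 0.12, pathway genes called higher numbered 20–22 and lower 1–1, neighbours called higher 0–1 and lower 0–0, and all genes called higher 890–1020 and lower 781–973. Without BIX replicate 3, human ligands called higher fell from 3 to 1. Without a fold threshold, 7 human pathway genes and 3 neighbours were called lower, and 2348 genes were higher and 2344 lower. In mouse, scaling to the NK markers gave −0.067 for Tnfrsf9 and −0.013 for Tnfrsf18, below 0 by less than their standard errors, and −0.98 for Tnfrsf4, −0.66 for Tnfrsf1b and −0.33 for Cd27. It called 58 pathway genes and 6 neighbours lower and 33 genes higher and 8107 lower in all. Leaving out each mouse library gave 0.58–0.93 for Tnfrsf9, 0.67–0.92 for Tnfrsf18, 0.29–0.67 for Cd27, 0.11–0.19 for Tnfrsf1b and −0.30 to −0.04 for Tnfrsf4, with 0–2 pathway genes called higher and 0–11 lower, 0–2 neighbours higher and 0–2 lower, and 0–905 genes higher and 0–1835 lower. DESeq2 called 9 mouse pathway genes lower and 570 genes higher and 1668 lower. With the adjusted p threshold of 0.01, edgeR called 0 mouse pathway genes lower, 0 neighbours lower, and 0 genes in either direction. Without a fold threshold 2 mouse pathway genes and 585 genes were called higher. With library totals only, and with limma-voom, 0 mouse neighbours were called lower. The labels do not say whether the mouse replicate numbers pair the samples, and 3 libraries per group are too few to decide it. Deviations of same-numbered libraries correlated at 0.281, 0.352 and −0.188, and those of differently numbered ones between −0.436 and 0.284. With the replicate number as a block, 2 pathway genes were called higher and 11 lower, and 573 genes higher and 1572 lower. For human, no paired fit was made because the control columns carry no sample number. The causes of these changes were not tested. Depth limited TNFRSF4, CD27 and the ligands Tnfsf18 and TNFSF9, which had under 50 counts in every library.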
